A study of Homo sapiens with 32 samples.

Results

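The CC chemokines described here were CCL2, CCL3, CCL4, CCL5, CCL7, CCL8 and CCL20, 7 of the 60107 genes in the count tables, taken by their symbol. Their mRNA was counted in THP-1 cells, a human monocytic leukemia cell line, with a 3′ mRNA-seq protocol in 32 libraries. All lines derive from THP-1 cells in which ACLY, the enzyme that makes acetyl-coenzyme A from citrate outside mitochondria, had been knocked out. KO cells carry the knockout, whereas WT, HA and SA cells were made from knockout cells by lentiviral re-expression of wild-type ACLY, catalytically inactive ACLY H760A or phosphorylation-deficient ACLY S455A from a vector with an EF promoter and puromycin selection. Each line was left untreated or stimulated over 3 h with LPS at 100 ng/ml, with 4 libraries in each of the 8 groups. Whether KO cells received an empty vector is not stated in the sources used here. Each genotype is represented by a single line, and its effect cannot be told apart from other differences between lines. The labels do not say whether the 4 libraries of a group came from separate cultures. The study speaks of independent experiments for its data in general without tying these libraries to them, so p-values measure the spread between these libraries, which may be technical.

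Chemokines are small secreted proteins that guide leukocytes along concentration gradients through G protein-coupled receptors. The CC class has its first conserved cysteines side by side, and monocytes and macrophages make several of its members soon after LPS engages Toll-like receptor 4, while others are tissue-specific. CCL3, CCL4 and CCL5 attract monocytes and T cells, CCL2, CCL7 and CCL8 are the monocyte chemoattractant proteins that bind CCR2 or related receptors, and CCL20 is the ligand of CCR6.

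Libraries held 6504099 to 14750815 reads on genes. Values below are normalized counts, meaning reads divided by a size factor set jointly over all 32 libraries. A 3′ protocol yields about 1 read per transcript whatever its length, so counts of different genes were set side by side without dividing by length. Replicate 1 of SA cells after LPS stood apart. Its distance from the other libraries of its group was 1.89 on the log2 scale, compared with 1.10 for the next library, and it had the fewest genes with a read, 13460 against a median of 17402. For the members tested, the LPS response of SA cells and their difference from WT after LPS are given with and without it. The ACLY count spanned 60.3 to 107 in KO libraries and 90.7 to 124 in WT libraries and did not separate them. Since a 3′ count can include a transcript from an edited gene and may miss one from a construct, it does not check the labels. All 12 monocytic markers had a mean of at least 10 counts. Their summed count was 29282 to 46052 in KO libraries and 27094 to 35017 in HA libraries, compared with 16716 to 21108 in WT and 15885 to 19240 in SA libraries. This sum was carried by LYZ, the gene of lysozyme. Without it the other 11 summed to between 12559 and 15508 counts for WT, between 11476 and 19701 for KO, between 13273 and 18765 for HA and between 11643 and 15279 for SA libraries, which overlapped. CEBPA, CD33 and ITGAM had lower means in KO than in WT cells in both conditions. CD14, CSF1R, SPI1, CD68, FCER1G and CTSS had higher means in both, such as CSF1R with 1076 against 416 untreated. TYROBP and MPO had higher means untreated and lower ones after LPS. The endothelial list, nearly all PECAM1, which monocytic cells also express, summed to 2290 to 2918 in WT, 2201 to 4304 in SA, 3526 to 6084 in KO and 3751 to 6299 in HA libraries. The B cell list summed to 69.1 to 105 in WT, 69.3 to 109 in SA, 82.4 to 119 in HA and 110 to 218 in KO libraries. The part of these marker levels in the differences between lines was not tested. In bulk RNA fewer expressing cells and less RNA per cell cannot be told apart. Of the 8 T and NK cell markers 1 reached that mean and 3 had no read, and none of the 4 epithelial or of the 4 fibroblast markers reached it.

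All but 1 of the genes lie on chromosome 17 of GRCh38 in the annotation of GENCODE release 44. CCL2 (ENSG00000108691, chr17:34255274-34257208, plus strand), CCL7 (ENSG00000108688, chr17:34270221-34272242, plus) and CCL8 (ENSG00000108700, chr17:34319435-34321402, plus) form 1 cluster. CCL5 (ENSG00000271503, chr17:35871491-35880793, minus), CCL3 (ENSG00000277632, chr17:36088256-36090169, minus) and CCL4 (ENSG00000275302, chr17:36103827-36105621, plus) follow further along. CCL20 (ENSG00000115009, chr2:227805739-227817564, plus) lies on chromosome 2.

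Promoter sequence from RefSeq on GRCh38.p14 was matched for 4 of the 7 genes, CCL3, CCL7, CCL8 and CCL20, and not for CCL2, CCL4 and CCL5. For all 4 matched genes the 100 bases upstream of the start in RefSeq are shown on the gene's own strand. Of these genes CCL3 and CCL8 were measured well above 0 after LPS, whereas CCL7 and CCL20 stayed close to 0. Capitals mark matches, in the 250 bases upstream and on either strand, to GGNNNTTCC (NF-kB), AAANNGAAA (IRF) or TGANTCA (AP-1).
CCL3 (chr17:36090144-36090243, minus): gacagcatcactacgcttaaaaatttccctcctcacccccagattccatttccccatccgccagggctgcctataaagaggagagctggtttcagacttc
CCL8 (chr17:34319335-34319434, plus): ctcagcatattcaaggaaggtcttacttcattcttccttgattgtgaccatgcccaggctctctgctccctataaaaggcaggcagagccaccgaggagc
CCL7 (chr17:34270121-34270220, plus): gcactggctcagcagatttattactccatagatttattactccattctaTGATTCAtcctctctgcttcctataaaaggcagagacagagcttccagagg
CCL20 (chr2:227813742-227813841, plus): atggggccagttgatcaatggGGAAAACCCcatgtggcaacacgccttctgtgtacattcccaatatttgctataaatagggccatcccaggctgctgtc

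CCL20 had 1 match to the NF-kB letters, from 79 to 71 bases upstream on the opposite strand, and CCL7 had 1 match to the AP-1 letters, which read the same on both strands, from 51 to 45 bases upstream. The windows of CCL3 and CCL8 held none of these letters. Of 35116 promoters in the table, 17.1% held the NF-kB letters in the same window, 9.2% the IRF letters and 6.57% the AP-1 letters. A match describes the letters only, and no match says nothing about a factor.

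By group mean CCL5 was the most abundant member in untreated cells of every line, and LPS changed the make-up of the chemokine transcripts. In replicate 3 of untreated KO cells CCL3 exceeded CCL5, with 900.0 against 836 counts. The summed count of the 7 genes was 1250 ± 175 in untreated WT cells (SD, n = 4) and 2479 ± 140.2 after LPS. In KO cells it was 1668 ± 227 and 10105 ± 2622, in HA cells 1159 ± 100.0 and 4234 ± 666, and in SA cells 1149.6 ± 73.2 and 3611 ± 1149, or 3051 ± 307 without replicate 1 (n = 3). CCL5 made up 89.8% ± 1.14 of this sum in untreated WT cells and 58.4% ± 5.66 after LPS. In KO cells its share was 48.5% ± 7.11 untreated and 27.9% ± 4.63 after LPS, where CCL3 took 37.1% ± 11.5. HA cells had the largest mean share of CCL3 after LPS, 43.1% ± 7.70, beside 38.2% ± 2.19 of CCL5. In SA cells CCL5 held 87.5% ± 2.24 untreated and 48.3% ± 3.22 after LPS, or 49.6% ± 2.41 without replicate 1.

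**Figure D1:**
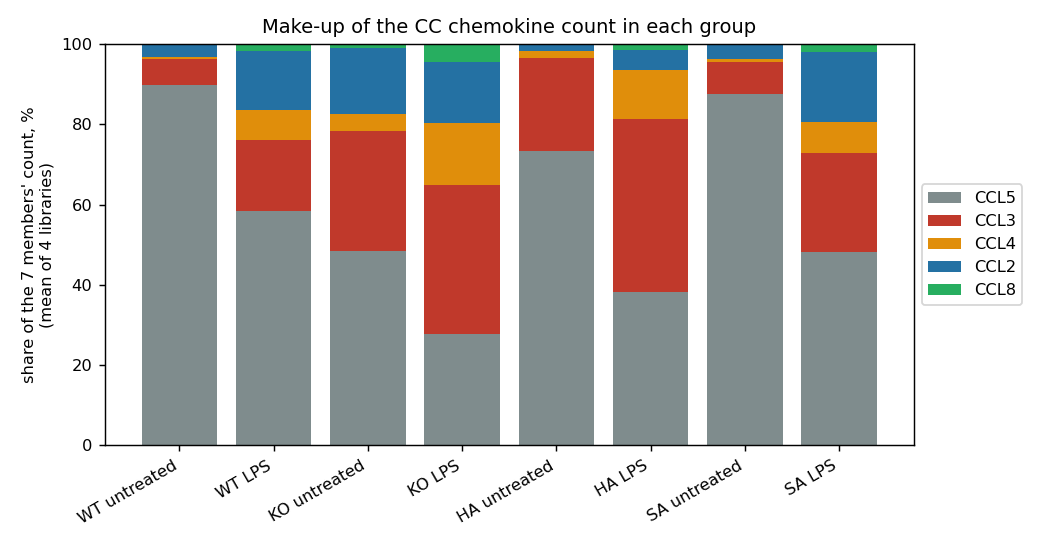
Share of the summed normalized count of the 7 CC chemokines, in percent, that each gene took in the 8 groups, as the mean of 4 libraries per group. CCL5 (grey) fills 89.8% of the bar of untreated WT cells and 27.9% of that of KO cells after LPS, while CCL7 and CCL20 are too low to be seen and are not drawn.

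CCL2, CCL3, CCL4, CCL5 and CCL8, 5 of the 7 genes, had a mean of at least 10 normalized counts over the libraries and entered the test of 12402 genes, whereas CCL7 and CCL20 did not. CCL8 reached a group mean of 10 counts only after LPS and in untreated KO cells. A difference was called at an adjusted p below 0.01. Fold changes are differences of log2(normalized count + 1), which understates changes of low counts. With LPS, 3 of the 5 were called in WT cells, 4 in KO, 3 in HA and 4 in SA cells, all higher, beside 0.25%, 0.581%, 0.403% and 0.492% of all genes tested. The median log2 change of the 5 genes was 2.98 in WT, 2.94 in KO, 3.61 in HA and 4.11 in SA cells (4.48 without stimulated replicate 1), whereas that of all genes tested lay between -0.02 and 0.02.

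**Figure D2:**
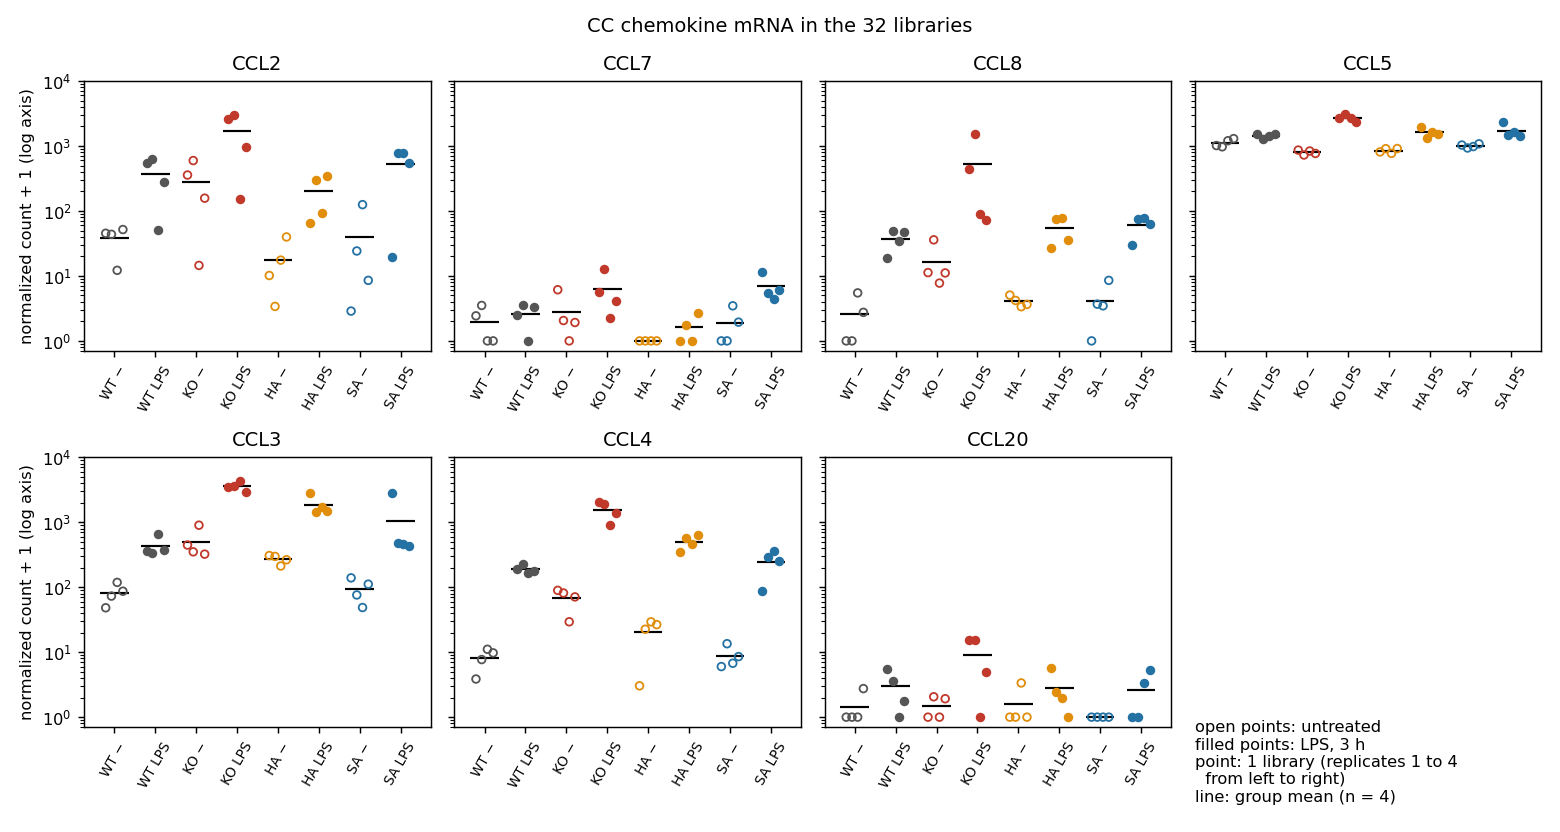
Normalized count plus 1 (log axis) of each CC chemokine in every library, with open points for untreated and filled points for LPS-stimulated cells, replicates 1 to 4 from left to right and a line at the mean of each group. CCL3 and CCL4 of KO cells after LPS stand above all libraries of the other groups, CCL5 is high in every group and moves most in KO cells, and CCL7 and CCL20 stay near the bottom.

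CCL3, the macrophage inflammatory protein 1α, rose with LPS in each line and was higher in KO than in WT cells with and without LPS. Untreated WT libraries held 47.2, 72.0, 118 and 85.8 counts, and 355, 335, 654 and 376 after LPS, given here and below in the order of replicates 1 to 4. KO libraries held 445, 349, 900.0 and 322 counts untreated and 3475, 3589, 4349 and 2869 after LPS. Untreated KO libraries all lay above untreated WT and overlapped stimulated WT libraries, and the stimulated KO libraries stood far above both. In HA cells the counts were 306, 297, 211 and 264 untreated and 2814, 1424, 1725 and 1486 after LPS, between those of WT and KO cells in both conditions and without overlap with either. In SA cells they were 138, 74.98, 47.7 and 110.4 untreated, which overlapped WT, and 2795, 480.3, 466 and 429 after LPS, where replicate 1 alone was far above the others.

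The LPS response of CCL3 was a log2 fold change of 2.42 in WT (standard error 0.43, limma adjusted p = 3.07e-03), 2.94 in KO (adjusted p = 9.92e-05), 2.74 in HA (adjusted p = 3.11e-04) and 3.05 in SA cells (adjusted p = 6.73e-05). Without replicate 1 of the stimulated SA cells the last was 2.40 (adjusted p = 6.00e-05). In WT cells the call was lost without untreated replicate 1 or 2 or without stimulated replicate 3 or 4, with adjusted p up to 3.09e-02, and with limma-voom (adjusted p = 6.72e-02). The SA response was not called in a fit of the SA libraries alone (adjusted p = 0.189). Fits of each line alone that paired its libraries by replicate number called the response in WT (adjusted p = 1.55e-10) and KO cells (adjusted p = 3.26e-06). Such fits also called it in HA cells (adjusted p = 1.40e-06) but not in SA cells (adjusted p = 5.82e-02).

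CCL3 was 5.95-fold higher in KO than in WT cells before LPS (log2 2.57, adjusted p = 2.17e-04) and 8.53-fold after it (log2 3.09, adjusted p = 1.37e-05). In HA cells it was 4.32-fold higher than in WT after LPS (log2 2.11, adjusted p = 3.04e-03), a call lost without WT replicate 1, 2 or 4 or HA replicate 1 (adjusted p up to 2.14e-02). Before LPS it was 3.45-fold higher (log2 1.79), which missed the threshold (adjusted p = 1.14e-02) and passed it without WT replicate 3 (adjusted p = 9.84e-03) and on the deposited scale (log2 1.93, adjusted p = 4.81e-03). In SA cells the difference from WT was 0.17 untreated and 0.80 after LPS on the log2 scale, with 95% intervals from -0.72 to 1.06 and from -0.09 to 1.69. Without SA replicate 1 the latter was 0.15.

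CCL4, the macrophage inflammatory protein 1β, rose with LPS in each line. Untreated cells held few transcripts, with 2.86, 6.70, 10.1 and 8.75 counts in WT libraries, 5.005, 12.5, 5.75 and 7.55 in SA, 2.03, 21.6, 28.3 and 25.6 in HA and 88.5, 80.4, 28.4 and 69.9 in KO. The untreated KO libraries lay above all those of WT and SA cells, while replicate 1 of HA cells fell within the WT range. After LPS, WT libraries held 193, 229, 163 and 175 counts, SA 85.7, 289, 362 and 248, HA 348, 562, 459 and 627, and KO 2084, 1898, 896 and 1399. The stimulated KO libraries exceeded all HA libraries, which in turn exceeded all WT libraries, and SA libraries fell on both sides of WT. The log2 response was 4.65 in WT (standard error 0.53, adjusted p = 2.33e-06), 4.58 in KO (adjusted p = 2.08e-06), 5.01 in HA (adjusted p = 6.44e-07) and 4.72 in SA cells (adjusted p = 1.19e-06), or 5.17 without SA stimulated replicate 1. Without HA untreated replicate 1 the HA response was 4.23 (adjusted p = 8.53e-06).

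CCL4 was 8.29-fold higher in KO than in WT cells before LPS (log2 3.05, adjusted p = 3.27e-04, but 5.44e-02 with limma-voom) and 7.88-fold after it (log2 2.98, adjusted p = 3.50e-04). In HA cells it was 1.01 higher on the log2 scale before LPS (95% interval -0.08 to 2.10) and 1.36 higher after it (0.28 to 2.45), neither of which was called (adjusted p = 0.233 and 0.167). Without HA untreated replicate 1 the former was 1.79 (adjusted p = 1.62e-02). SA cells differed from WT by 0.14 before LPS (-0.95 to 1.22) and 0.20 after it (-0.88 to 1.29), or 0.65 without SA replicate 1. In KO cells against WT 2 members were called untreated, CCL3 and CCL4, beside 2.92% of all genes, and 3 after LPS, CCL3, CCL4 and CCL5, beside 3.48%. HA cells had 0 members called untreated and 1 after LPS, beside 2.52% and 2.02% of all genes. For SA cells limma called 0 members and 0% of all genes in both conditions, with 445 genes untreated and 646 after LPS at an unadjusted p below 0.05, and limma-voom on the recovered reads likewise called 0. The comparisons with WT share the WT libraries.

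**Figure D3:**
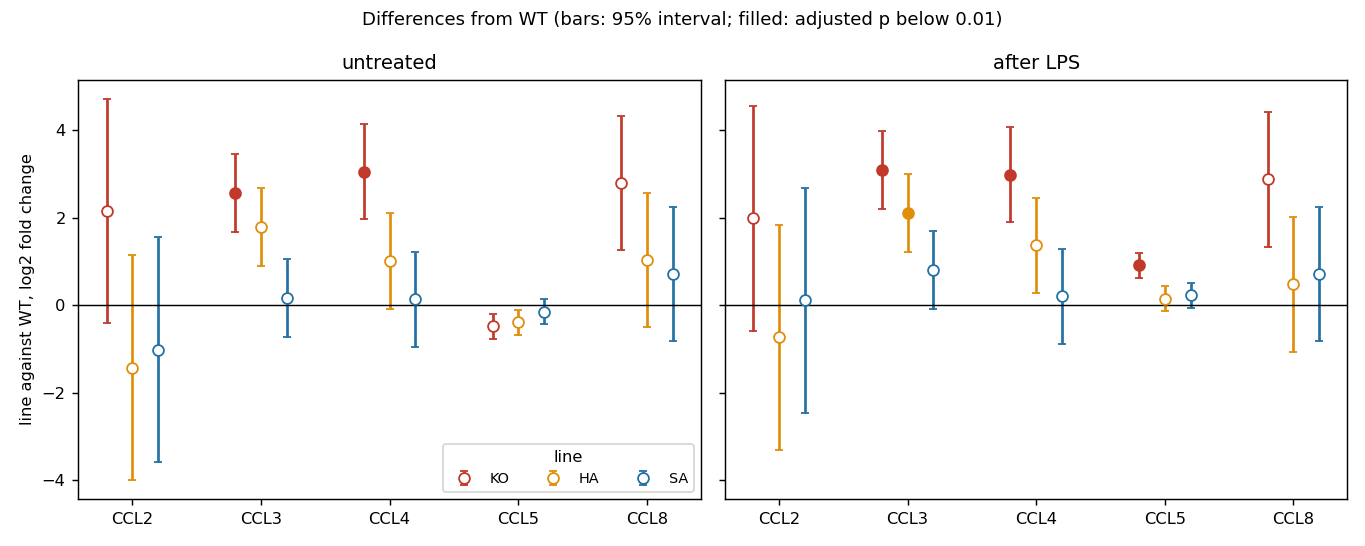
Log2 fold change of KO, HA and SA cells against WT, untreated on the left and after LPS on the right, for the 5 tested genes, with 95% intervals and filled points where the adjusted p was below 0.01. The KO points lie above 0 for CCL2, CCL3, CCL4 and CCL8 in both panels and change side for CCL5, from -0.48 to 0.91.

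CCL5, which binds CCR1 and CCR3 and attracts T cells, was high before LPS, had the smallest log2 responses and was the most even member. Its standard deviation around the group means was 0.189 on the log2 scale, lower than for all but 6.65% of the genes tested, whereas the median gene had 0.422. WT libraries held 1015, 970.4, 1204 and 1298 counts untreated and 1538, 1281, 1419.9 and 1542 after LPS, with an overlap between the groups. KO libraries held 864, 726, 836 and 767 untreated, all below WT, and 2736, 3146, 2704 and 2346 after LPS, all above WT. HA libraries, with 810.4, 909, 769 and 913 counts, were also below WT before LPS and overlapped it after LPS with 1952, 1338, 1655 and 1518. SA libraries held 1033, 931, 979.8 and 1079 untreated and 2355, 1482, 1621 and 1422 after LPS and overlapped WT in both conditions.

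The LPS response of CCL5 was 1.29-fold in WT (log2 0.37, adjusted p = 1.00), 1.68-fold in SA (log2 0.75, adjusted p = 3.22e-03), 1.89-fold in HA (log2 0.92, adjusted p = 2.02e-04) and 3.41-fold in KO cells (log2 1.77, adjusted p = 1.68e-09). In a fit of the WT libraries alone that paired them by replicate number (replicate block) the WT response was called (adjusted p = 5.83e-03). That fit changes both the libraries and the block, and neither change alone gave the call. The SA response was not called without untreated replicate 1, 2 or 3 or without stimulated replicate 1, where it was 0.58 on the log2 scale (adjusted p = 1.95e-02), nor in a fit of the SA libraries alone (adjusted p = 0.48), and the HA response was not called in a fit of the HA libraries alone (adjusted p = 1.89e-02). The KO and WT responses differed by 1.40 on the log2 scale (95% interval 0.99 to 1.81, adjusted p = 1.58e-03), the single call among all genes in this comparison, 0.00806%. This difference stayed between 1.32 and 1.47 when any library was left out, with adjusted p of at most 8.39e-03. HA and WT responses differed by 0.54 (0.14 to 0.95) and SA and WT responses by 0.37 (-0.03 to 0.78), or 0.21 without SA stimulated replicate 1, and neither was called. Against WT, CCL5 in KO cells was 1.89-fold higher after LPS (log2 0.91, adjusted p = 4.94e-05), while the lower level before LPS was not called (log2 -0.48, adjusted p = 4.32e-02). SA cells differed from WT by -0.15 before LPS (-0.44 to 0.14) and 0.22 after it (-0.06 to 0.51), or 0.06 without SA stimulated replicate 1.

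**Figure D4:**
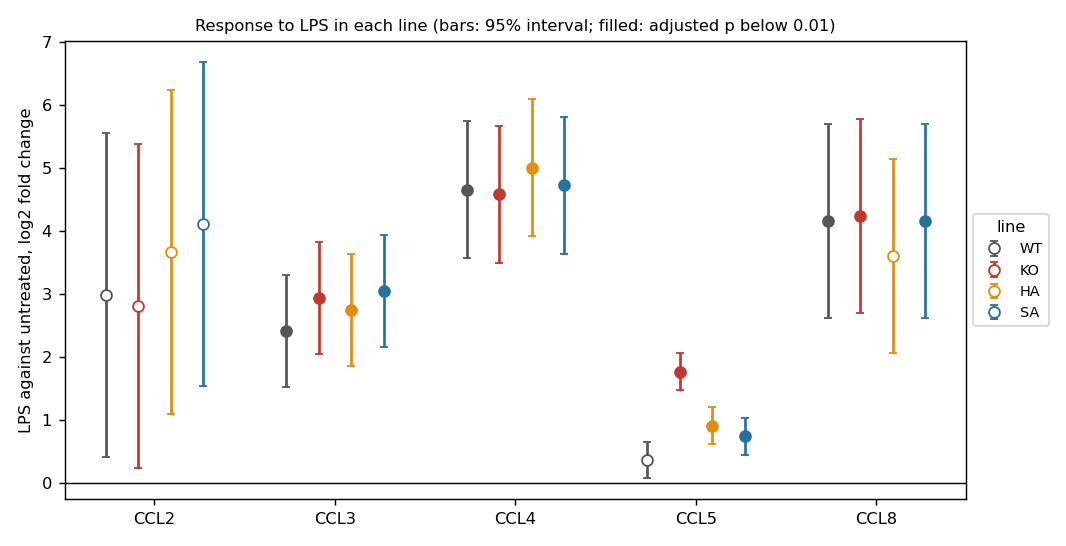
Log2 fold change of LPS-stimulated against untreated cells in each line for the 5 tested genes, with 95% intervals and filled points where the adjusted p was below 0.01. The intervals of the lines overlap for CCL2, CCL3, CCL4 and CCL8, while the KO interval of CCL5, 1.48 to 2.06, lies above those of the other lines.

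For the other 4 genes the LPS responses of KO and WT cells differed by -0.17 for CCL2, 0.52 for CCL3, -0.07 for CCL4 and 0.08 for CCL8 on the log2 scale. The intervals were wide, from -0.74 to 1.78 for CCL3, from -1.61 to 1.47 for CCL4 and from -3.79 to 3.46 for CCL2, so equal responses were not shown. In a fit of the WT and KO libraries with a replicate block they were narrower, from 0.002 to 1.04 for CCL3 (adjusted p = 0.573), from -1.03 to 0.88 for CCL4 and from -1.20 to 0.86 for CCL2, and none of these was called. Limma called 0 members and 0% of all genes for the difference of responses between HA and WT and between SA and WT, with 141 and 457 genes at an unadjusted p below 0.05, and limma-voom called 0 genes in both.

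CCL2, the monocyte chemoattractant protein 1 and main ligand of CCR2, had the widest spread of the members, and its standard deviation around the group means, 1.90 on the log2 scale, exceeded that of 99.6% of the genes tested. WT libraries held 44.4, 42.7, 11.2 and 50.8 counts untreated and 537, 631, 50.4 and 277 after LPS. KO libraries held 356, 596, 13.5 and 156 untreated and 2624, 3000.5, 153 and 979 after LPS. Replicate 3 was the lowest in each of these 4 groups, and within each replicate number KO libraries exceeded WT libraries in both conditions. In untreated replicate 3, however, both libraries had 10 reads, and their counts differed through the size factors only. HA libraries held 9.15, 2.40, 16.5 and 38.8 counts untreated and 63.8, 301, 92.1 and 345 after LPS. SA libraries held 1.88, 23.2, 124 and 7.55 untreated and 18.5, 778, 793 and 548 after LPS, where replicate 1 stayed low.

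In the comparison without pairing CCL2 was not called anywhere. Its log2 LPS response was 2.98 in WT, 2.81 in KO, 3.67 in HA and 4.11 in SA cells with a standard error of 1.25 (adjusted p from 0.182 to 1.00), and KO exceeded WT by 2.15 untreated (adjusted p = 0.488) and 1.98 after LPS (adjusted p = 0.478). Libraries of WT and KO cells with the same replicate number deviated together, and under a replicate block fitted to the groups compared CCL2 was called for the response in WT (adjusted p = 1.53e-08) and KO cells (adjusted p = 6.65e-06) and for KO against WT after LPS (adjusted p = 4.77e-07), though not untreated (adjusted p = 1.10e-02). Neither the block over all 32 libraries nor the groups compared without it called CCL2. By the rule used, the replicate numbers did not pair HA or SA libraries. CCL2 in HA cells was 1.43 below WT untreated and 0.74 below it after LPS on the log2 scale, with intervals from -3.99 to 1.14 and from -3.30 to 1.83. SA cells without replicate 1 had a response of 5.40 (adjusted p = 2.11e-02). They differed from WT by -1.02 untreated (-3.58 to 1.55) and 0.11 after LPS (-2.45 to 2.68), or 1.40 without SA stimulated replicate 1. The SA and WT responses differed by 1.13 (-2.50 to 4.76), or 2.42 without that library, and none of these differences was called.

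CCL8, the monocyte chemoattractant protein 2, was close to 0 before LPS. In each line all stimulated libraries exceeded all untreated ones, and the rise was called in WT, KO and SA cells. Untreated counts were 0, 0, 4.48 and 1.75 in WT, 0, 2.68, 2.47 and 7.55 in SA, 4.07, 3.19, 2.36 and 2.65 in HA and 10.3, 34.9, 6.76 and 10.1 in KO libraries. Only the untreated KO libraries all lay above those of WT. After LPS they were 17.96, 47.7, 34.0 and 46.8 in WT, 28.9, 73.8, 77.8 and 62.4 in SA, 25.5, 75.1, 78.2 and 35.1 in HA and 448, 1512, 90.2 and 71.3 in KO libraries. The stimulated KO libraries again exceeded all WT libraries, with a spread of their own from 71.3 to 1512. The log2 response was 4.16 in WT (standard error 0.75, adjusted p = 3.07e-03), 4.24 in KO (adjusted p = 1.23e-03), 3.61 in HA (adjusted p = 1.11e-02, not called, but 6.27e-03 in a fit of the HA libraries alone) and 4.16 in SA cells (adjusted p = 1.83e-03), or 4.48 without SA stimulated replicate 1. Since untreated counts were near 0 its size depends on the pseudocount, and with a pseudocount of 5 the WT response was 2.64 and was not called (adjusted p = 4.47e-02). The calls were also lost without WT untreated replicate 1 or 2 or stimulated replicate 2, 3 or 4 (adjusted p up to 2.95e-02), without KO stimulated replicate 1 or 2 (up to 1.18e-02), and without SA untreated replicate 1 or stimulated replicate 2 or 3 (up to 1.73e-02). In fits of the groups compared alone CCL8 was called in none of WT (adjusted p = 2.88e-02), KO (adjusted p = 0.147) and SA cells (adjusted p = 8.05e-02), and limma-voom called it in none of the 3 (adjusted p from 0.11 to 1.00). With a replicate block added to the fits of the groups compared, CCL8 was called in WT (adjusted p = 5.38e-05) and KO cells (adjusted p = 2.53e-04). The same fit called it in HA cells (adjusted p = 4.54e-03) but not in SA cells (adjusted p = 8.64e-02). In HA cells it was called with the replicate block over all libraries (adjusted p = 7.98e-03) and not with limma-voom (adjusted p = 0.823).

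CCL8 was 6.94-fold higher in KO than in WT cells untreated (log2 2.79, adjusted p = 2.46e-02) and 7.34-fold after LPS (log2 2.88, adjusted p = 1.60e-02), which missed the threshold. In a fit of the groups compared with a replicate block the difference after LPS was called (adjusted p = 3.22e-03), though not with either change alone. It was called with a pseudocount of 5 (adjusted p = 3.16e-03) and without KO stimulated replicate 3 (adjusted p = 6.54e-03) or 4 (adjusted p = 3.96e-03), while without replicate 2 it was 2.03 (adjusted p = 0.109). In HA cells the difference from WT was 1.03 untreated (-0.51 to 2.56) and 0.48 after LPS (-1.06 to 2.01), and in SA cells 0.71 in both conditions (-0.82 to 2.25 in each), or 1.03 after LPS without SA replicate 1.

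CCL7, the monocyte chemoattractant protein 3, whose gene lies between those of CCL2 and CCL8, had 68 reads in all 32 libraries, compared with 12529 for CCL2 and 2582 for CCL8. It had 4 reads in untreated and 7 in stimulated WT libraries, 6 and 19 in KO, 0 and 3 in HA, and 4 and 25 in SA. The 4 stimulated SA libraries held 9, 7, 3 and 6 reads. The 0 of 41620746 reads in untreated HA cells allows up to 0.0721 CPM, counting error only. CCL20 had 56 reads, of which 29 fell in stimulated KO libraries with 12, 12, 0 and 5 reads. It had 7 reads in each of the stimulated WT, HA and SA groups, 2 in untreated WT, KO and HA cells, and 0 of 47404631 in untreated SA cells, which allows up to 0.0633 CPM. In a fit without the filter neither was called in any comparison. The smallest adjusted p was that of CCL7 with LPS in SA cells (log2 2.00, unadjusted p = 1.87e-03, adjusted p = 0.247), where the libraries did not overlap.

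Arranged by their group means, the stimulated KO cells came first for CCL2, CCL3, CCL4, CCL5, CCL8 and CCL20, and the stimulated SA cells for CCL7. Neighbours in this order overlapped in their libraries in 7 of 7 pairs for CCL2, CCL7, CCL8 and CCL20, in 6 of 7 for CCL5 and in 4 of 7 for CCL3 and CCL4. The share of overlapping neighbours over all genes tested was not counted, so these counts describe the order only. KO exceeded HA cells by 0.79 for CCL3 and 2.04 for CCL4 on the log2 scale before LPS and by 0.98 and 1.61 after LPS, without overlap of the libraries. Of these comparisons limma called 0 members, with 0.226% of all genes called before and 0.00806% after LPS. CCL5 after LPS came closest (log2 0.76, adjusted p = 1.38e-02) and was called by limma-voom (adjusted p = 8.38e-03), as was CCL4.

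CCL3 and CCL4 have near-identical copies on the same chromosome. The files name the copies CCL3L1 (ENSG00000276085, chr17:36194869-36196758, minus, which GENCODE release 44 calls CCL3L3) and CCL4L2 (ENSG00000276070, chr17:36210924-36212878, plus). Reads that fit both copies could be lost or split in counting. Over the last 400 bases of the longest transcripts 2.76% of the 75-base windows of CCL3 were identical to CCL3L1 and 3.37% of those of CCL4 to CCL4L2, 75 bases being the read length. CCL3 took 49.0% ± 5.22 of the summed count of CCL3 and CCL3L1 in untreated WT cells and 46.3% ± 2.18 after LPS. In KO cells it took 60.7% ± 7.14 and 43.99% ± 2.34, and in HA cells 63.5% ± 5.32 and 47.5% ± 3.96. In untreated KO cells CCL3 and CCL3L1 together had a mean of 805 counts, beside 798 for CCL5. Their sum was below CCL5 in untreated cells of the other lines. The copies moved in the same direction, with CCL3L1 higher in KO than in WT cells by 1.87 untreated (adjusted p = 3.44e-05) and 3.23 after LPS (adjusted p = 2.89e-09) on the log2 scale. For CCL4L2 the differences were 2.23 and 2.70 and were not called (adjusted p = 5.49e-02 and 1.16e-02). With the copies summed, CCL3 was higher in KO than in WT cells by 2.27 untreated and 3.17 after LPS, CCL4 by 2.61 and 2.83, and each of these was called.

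Within groups, libraries with little CCL2 had much CCL3. In 7 of the 8 groups the library with the lowest CCL2 had the highest CCL3, and HA untreated was the exception. That library was replicate 3 in every WT and KO group, and replicate 1 in stimulated HA and in both SA groups. Since WT and KO libraries of the same replicate number deviated together, the 7 groups are not independent cases. Over the deviations of the 32 libraries from their group means the 2 genes had r = -0.832 and rho = -0.685. The 10 pairs among the 5 tested genes and their relation to 4 library measures were examined, 30 relations in all, with replicate numbers permuted within groups, together for the WT and KO groups. The HA and SA groups were permuted separately, so the permutation p could be too small if their libraries were paired. The permutation p of r was 0.00052 (adjusted over the 30 relations 0.0078) and that of rho 0.00365 (adjusted 0.0365). Without the 2 libraries farthest from the median of CCL2, KO untreated replicate 3 and SA stimulated replicate 1, r was -0.761. Within the lines it was -0.817 in WT, -0.744 in KO, -0.663 in HA and -0.959 in SA cells. CCL3 and CCL5 deviated in the same direction, with r = 0.727 (permutation p = 0.00019, adjusted 0.0057), rho = 0.69 (permutation p = 0.00013, adjusted 0.0039) and r = 0.61 without the same 2 libraries. Within the lines r ranged from 0.438 in WT to 0.915 in SA cells. The remaining 8 pairs, CCL2 with CCL4 included (r = 0.513, permutation p = 0.0121, adjusted 0.0517), did not pass 0.05 after adjustment.

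The number of genes with a read moved with these deviations. It had r = 0.693 and rho = 0.555 with CCL2 (permutation p = 0.00273 and 0.0224, adjusted 0.0164 and 0.0947) and r = -0.809 and rho = -0.654 with CCL3 (permutation p = 0.00124 and 0.00155, adjusted 0.0093 and 0.0232). Without the 2 libraries farthest from its median r was 0.599 and -0.653. With CCL4 it had r = 0.62 and rho = 0.408 (permutation p = 0.00111 and 0.0238, adjusted 0.0093 and 0.0947). The part of this measure in the relation of CCL2 and CCL3 was not tested. The pair was singled out after its values were seen.

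**Figure D5:**
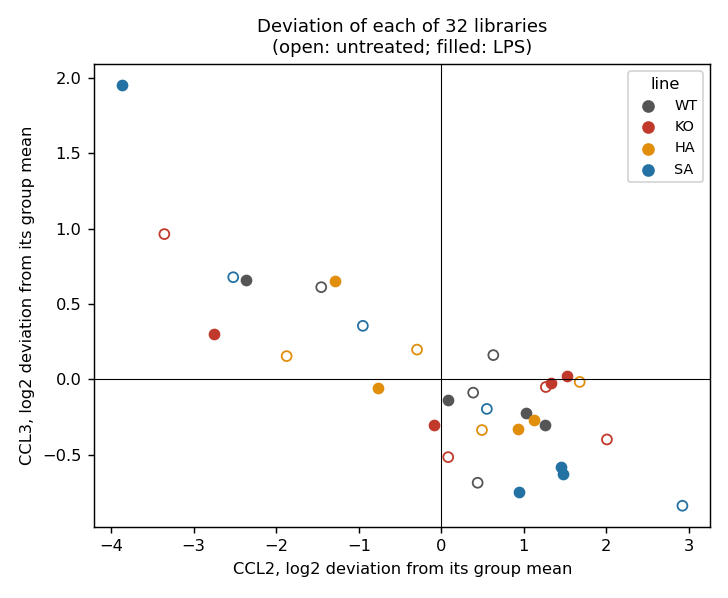
Log2 deviation of CCL3 (vertical) against that of CCL2 (horizontal) from the group mean for each of the 32 libraries, coloured by line and open for untreated cells. The points run from low CCL2 with high CCL3, where SA stimulated replicate 1 lies outermost, to high CCL2 with low CCL3, with r = -0.832.

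Across all 32 libraries, groups included, the genes whose log2 counts were most like those of CCL2 by Pearson correlation were TRIM25 (r = 0.94) and SOD2 (r = 0.93). For CCL3 they were CCL3L1 (r = 0.97) and TNFSF10 (r = 0.954), for CCL4 CCL4L2 (r = 0.975) and CXCL10 (r = 0.965), for CCL5 BCL3 (r = 0.92) and SLC2A6 (r = 0.891), and for CCL8 APOL6 (r = 0.945) and IFIT3 (r = 0.941). After removal of the group means the value for CCL2 stayed at 0.933 with TRIM25 and 0.935 with SOD2, while that of CCL3 with TNFSF10 was 0.373 and that of CCL5 with BCL3 was 0.594. These are descriptions over libraries that share lines, treatments and replicate numbers.

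Of 21 other CC ligands 19 were in the files and 4 were tested, CCL3L1, CCL4L2, CCL23 and CCL28. Both copies rose with LPS in each line. CCL28, a chemokine of mucosal epithelia, was lower than in WT cells after LPS in KO (15.3 against 78.2 counts, log2 -2.34, adjusted p = 8.03e-05) and HA cells (17.1 counts, log2 -2.35, adjusted p = 1.42e-04). Before LPS it was also lower, without overlap of the libraries though not called, in KO (27.5 against 79.7 counts, log2 -1.53, adjusted p = 1.10e-02) and HA cells (28.8 counts, log2 -1.44, adjusted p = 1.82e-02). CCL23 was not called in any comparison. Of 14 CC receptors CCR1 and CCR2 were tested, and neither was called in any comparison. Mean counts of CCR1 lay between 566 and 975.5 and those of CCR2, the receptor of CCL2, between 470.7 and 863. CCR6, the receptor of CCL20, had 0 reads in all libraries.

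Of 18 transcription factors and feedback genes of the NF-kB, IRF and AP-1 pathways, all of them tested, IRF1 and JUN rose with LPS in each line and the other 16 were called in none. IRF1, an interferon regulatory factor, rose by 0.97 in WT (adjusted p = 3.07e-03), 1.88 in KO (adjusted p = 4.35e-08), 1.43 in HA (adjusted p = 6.20e-06) and 1.41 in SA cells (adjusted p = 5.79e-06) on the log2 scale. It was higher in KO than in WT cells by 0.84 untreated (adjusted p = 2.13e-03) and 1.75 after LPS (adjusted p = 5.20e-08), and in HA cells by 1.16 after LPS (adjusted p = 7.42e-05). IRF7 was higher in untreated KO cells (log2 1.93, adjusted p = 3.29e-03), and JUN in KO cells after LPS (log2 0.77, adjusted p = 3.89e-03). The median log2 difference of the 18 genes between KO and WT cells was 0.33 untreated and 0.70 after LPS, beside -0.03 and -0.01 over all genes tested. Of 5 mRNA decay factors ZC3H12A, an endoribonuclease that cuts inflammatory transcripts, rose with LPS in KO (log2 1.45, adjusted p = 1.54e-04) and HA cells (log2 1.28, adjusted p = 9.72e-04) and was higher in KO than in WT cells after LPS (log2 1.08, adjusted p = 1.69e-03), and the other 4 were called nowhere.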

How the data were processed

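RNA of 32 THP-1 samples was sequenced with QuantSeq 3′ libraries (Lexogen, single-end, 75-base reads). According to the methods, the authors trimmed reads with Bbduk, aligned them to GRCh38 with STAR, counted them per gene with HTSeq-count and normalized the counts with DESeq2. Deposited values are counts divided by size factors set within each line. Multiplying back gave whole reads for 100% of values within 0.05 reads. Reads were divided by median-of-ratios factors over all 32 libraries, which differed from the deposited scale by up to 14.35%. In the 60199 rows per table, 92 spike-in rows held 1 read and were left out. Groups came from the labels. Genes with a mean of at least 10 were fitted on log2(count + 1) with limma 3.58.1 (R 4.3.3, trend, all 32 libraries) and Benjamini-Hochberg adjustment over 12402 genes, called below 0.01. Planned count-based tests were not run, and limma-voom on the recovered reads was added in their place after the data were seen.

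Replicate numbers were taken to pair groups where each same-number correlation of deviations was above 0.1, which held for WT and KO libraries only. The mean same-number correlation ranged from 0.351 to 0.494 among WT and KO groups and from 0.080 to 0.359 among HA and SA groups. Between a WT or KO group and an HA or SA group it ranged from -0.201 to 0.168. The rule therefore does not show that HA and SA libraries are unpaired. The 7 genes and all lists were chosen with earlier results of these data known. Named genes are the 7 members, listed genes called in a comparison with WT or with LPS, and for each tested member the 2 genes of highest correlation over the libraries. The fit was also run on simulated data with independent libraries and a capped spread per gene. That run does not check the fit where libraries are paired or a gene's spread exceeds the cap. Intervals and floors cover counting error only where they rest on reads. Marker lists of 6 cell types served as a check. Permutation tests used 100000 draws. GENCODE release 44 gave positions. Alternatives covered the pseudocount, the filter, the scaling, the samples in the fit, the block and each library left out.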

Additional observations from a re-analysis of the deposited data

Results flagged for a closer look

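Outlying libraries were looked for in 54 sets of 4 values, each gene in each group in which it varied, and 5 were found, where chance alone gives about 1 in 20. CCL3 was 654 in replicate 3 of stimulated WT cells, with the others between 335 and 376. It was 2795 in replicate 1 of stimulated SA cells, with the others between 429 and 480.3, the library that also stood apart over all genes. CCL8 was 34.9 in replicate 2 of untreated KO cells, with the others between 6.76 and 10.3. CCL20 was 1.75 in replicate 4 of untreated WT cells and 2.36 in replicate 3 of untreated HA cells, with 0 in the others, 2 reads in each case. With 3 values at 0 any other value is outlying by construction, so these 2 say nothing, and 3 of the remaining 52 sets held an outlier.

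A difference between lines in the LPS response was found for CCL5, 1.40 higher in KO than in WT cells on the log2 scale (limma adjusted p = 1.58e-03), by a test of the difference itself.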

How the results depend on the processing

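The higher CCL3 and CCL4 of KO than WT cells after LPS, and the larger CCL5 response of KO cells, were called under all alternatives run, each library left out included. Members called with LPS in WT cells were 3, but 1 with limma-voom, 5 with the replicate block in a fit of the groups compared (paired fit below), and 1 to 3 with 1 library left out. With a pseudocount of 5 or in a fit of the groups compared alone they were 2. In KO cells 3 were called in a fit of the groups compared alone and with limma-voom, 5 in the paired fit, and 3 to 4 with 1 library left out, against 4. In HA cells, whose libraries did not meet the rule for pairing, the paired fit gave 5 and the replicate block over all libraries 4, in place of 3. In SA cells 1 was called in a fit of the groups compared alone, 0 in the paired fit, 3 with limma-voom, and 2 to 4 with 1 library left out, against 4. For KO against WT untreated limma-voom gave 1 in place of 2. After LPS the paired fit gave 5, a pseudocount of 5 gave 4 and leaving out 1 library 3 to 4, in place of 3. For HA against WT untreated the deposited scale, the fit of the groups compared and the replicate block over all libraries each gave 1 and leaving out 1 library 0 to 1, against 0. After LPS the fit of the groups compared gave 2, the paired fit 0, and leaving out 1 library 0 to 1, against 1. For KO against HA after LPS the replicate block over all libraries gave 1 and limma-voom 2, against 0. The cause of these changes was not tested.

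Differences that changed sign were called in no fit. The deposited scale, set within each line, moved the median gene against WT by 0.15 in HA and 0.26 in SA cells untreated, and by 0.16 and 0.27 after LPS (log2). SA against WT untreated was 0.11 for CCL5 on the deposited scale. The KO and WT responses differed by -0.45 for CCL8 with a pseudocount of 0.5 and -0.62 with limma-voom, and by 0.44 for CCL4 with a pseudocount of 5 and 0.22 with copies summed. The HA and WT responses differed by 0.089 for CCL8 with a pseudocount of 5. The SA and WT responses differed by -0.22 (pseudocount 0.5), -0.011 (TMM scale) and -0.03 (limma-voom) for CCL8, and by -0.056 for CCL4 with copies summed. With 1 library left out, SA against WT ranged from -0.063 to 0.45 for CCL3 and -0.19 to 0.32 for CCL4 untreated, and from -0.68 to 1.40 for CCL2 and -0.04 to 0.65 for CCL4 after LPS. The difference between KO and WT responses ranged from -1.29 to 0.75 for CCL2, -0.44 to 0.25 for CCL4 and -0.77 to 0.70 for CCL8, and that between HA and WT from -0.10 to 1.25 for CCL2 and -0.42 to 0.67 for CCL4. That between SA and WT ranged from -0.018 to 0.88 for CCL3, -0.18 to 0.51 for CCL4 and -0.56 to 0.47 for CCL8.

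Of the single-gene values, 649 with 1 library left out and 781 under other settings kept their direction and call. With 1 library left out 46 changed sign, 22 lost their call and 3 gained one. Under other settings 10 changed sign, 17 lost their call and 17 gained one. edgeR and DESeq2 were not run. limma-voom, in their place, and the summed copies were chosen after seeing the data. CCL7 and CCL20 had 68 and 56 reads in all.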
